A study of Mus musculus with 9 samples.

Results

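The genes described here are 10 that mark osteoclasts, followed in cultures of the cells that build bone. They were chosen by name and looked up in the deposited expression tables, where all 10 were found among 40548 genes. They are the secreted or lysosomal enzymes Acp5, Ctsk and Mmp9, the proton pump subunit Atp6v0d2, the fusion genes Dcstamp and Ocstamp, and the surface receptors Tnfrsf11a, Itgb3, Oscar and Calcr.

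Osteoclasts are large cells that dissolve bone and form by fusion of precursors of the macrophage lineage. RANKL, made by osteoblasts and osteocytes, binds the receptor RANK on the precursors and, together with M-CSF and with costimulation through ITAM adaptors, turns on the factors that drive the osteoclast genes. The mature cell seals itself onto bone through an integrin, pumps protons beneath it and releases cathepsin K. Not all of these genes belong to osteoclasts alone. Cathepsin K is also made by osteoblast-lineage cells, tartrate-resistant acid phosphatase by osteocytes and macrophages, and the integrin β3 chain by osteoblasts, platelets and endothelial cells, whereas the fusion genes and the calcitonin receptor serve as narrower markers in bone.

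The cells came from calvaria (the skull vault) of C57BL/6 pups at postnatal day 2-3 and were grown to confluency. Day 0 cells had no differentiation, and day 4 and day 7 cells had that many days of mineralization culture, with β-glycerol phosphate and ascorbic acid added, with 3 biological replicates per stage and 9 libraries in all. All stages came from digests of calvaria stripped of periosteum, from both sexes, with no sort, RANKL or M-CSF named in the methods. Mineralized cells were released with collagenase I before trypsin, so that the way the cells were lifted changed with the stage. RNA was depleted of ribosomal RNA, and the tables give CPM (reads on a gene, scaled to the library's reads on genes) and RPKM (CPM per length of the gene, the scale used here to compare genes). In bulk RNA, fewer cells of a type and less RNA per cell cannot be told apart.

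Whole reads could be recovered from the CPM values, and the reads on genes ranged from 7741204 to 14013219 at day 0, from 32820610 to 37306090 at day 4 and from 10675858 to 15622755 at day 7. Day 7 was tested against day 0 with limma on log2(CPM + 0.5), with Benjamini-Hochberg adjustment over 12712 genes with CPM averaging 1 or more and a threshold of 0.05. Of these genes, 31.2% passed, 12.6% (1602 genes) higher and 18.6% (2369 genes) lower at day 7. Scaling by median of ratios split the calls into 2843 higher and 2611 lower. Day 4 lies in tables of its own and was sequenced more deeply, so that depth, table and stage cannot be told apart. Day 4 was not tested, and its levels, ratios and overlap with the other libraries are given as descriptions. The labelled cell type was checked against its markers, and 11 of 12 tested osteoblast and osteocyte markers rose, Ibsp, a matrix sialoprotein of osteoblasts, from a mean of 3.82 RPKM at day 0 to 2810 at day 7.

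Of the 10 osteoclast genes, 6 passed the filter. Acp5, Ctsk and Atp6v0d2 were higher at day 7, Mmp9 was lower by a call that several settings did not keep, and Tnfrsf11a and Itgb3 did not pass. These 3 higher and 1 lower stand beside the 12.6% and 18.6% of all genes, and the libraries of the same 4 genes did not overlap between day 0 and day 7, as in 42.3% of all genes (16.9% higher and 25.4% lower). The other 4, Dcstamp, Ocstamp, Oscar and Calcr, were too low for the test. At day 4, the libraries of Acp5, Ctsk, Atp6v0d2, Itgb3 and Ocstamp lay above those of day 0 without overlap, which among all genes tested happened for 21.1% upward, 22.2% downward and 43.3% either way. From day 4 to day 7 Itgb3 alone among the 10 was apart, lower at day 7, beside 24.6% lower, 13.8% higher and 38.5% either way among all genes tested. The levels spanned from 0 to 237 RPKM, as the plot of the genes by library shows.

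**Figure D1:**
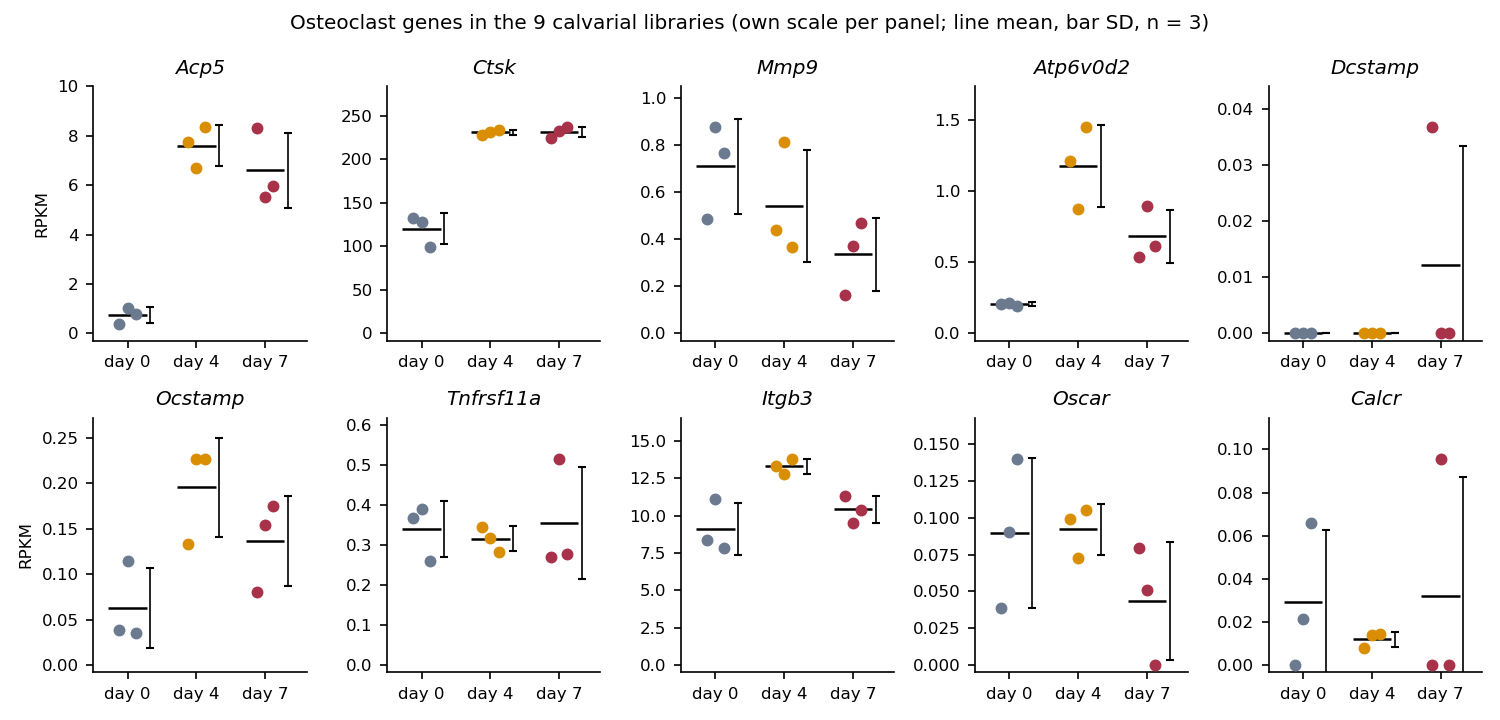
RPKM of the 10 osteoclast genes (vertical axis, own scale in each panel) in the 3 libraries of each stage (horizontal axis), with the mean as a line and 1 SD as a bar. Acp5, Ctsk and Atp6v0d2 lie higher at both later stages than at day 0, whereas Dcstamp has a value above 0 in 1 library only.

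Ctsk (cathepsin K, the protease that cuts bone collagen, on the forward strand at chr3:95499256-95509362 of GRCm38) was by far the most abundant. It had 133, 128 and 99.8 RPKM in the day 0 libraries, 228, 231 and 234 at day 4, and 225, 233 and 237 at day 7. All later libraries lay above all day 0 libraries, and day 4 and day 7 overlapped. The mean rose from 120 ± 18 to 232 ± 6.24 RPKM (SD, n = 3), 1.92-fold, with a log2 fold change of 0.95 ± 0.16 (SE; limma adjusted p = 2.44e-06). Ctsk made up 90.2% to 93.2% of the summed RPKM of the 10 genes in every library. Its RPKM was 2.0 to 3.59 times that of Lyz2, the lysozyme gene of macrophages and the most abundant marker in their list. It had 1145 to 12806 reads per library.

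The 250 bases before the RefSeq start of Ctsk are shown because Ctsk, Acp5 and Oscar are textbook targets of the osteoclast factors MITF, PU.1 and NFATc1. Capitals mark matches on either strand to CACATG (an E-box bound by MITF and TFE3), GAGGAA (a PU.1 box), GGAAA (the NFAT core), TGANTCA (AP-1) or TGTGGT (RUNX). A PU.1 box and an NFAT core can share bases. The sequence reads 5′ to 3′ on the strand of the gene, from chr3:95498960-95499209 of GRCm38.p6.
Ctsk: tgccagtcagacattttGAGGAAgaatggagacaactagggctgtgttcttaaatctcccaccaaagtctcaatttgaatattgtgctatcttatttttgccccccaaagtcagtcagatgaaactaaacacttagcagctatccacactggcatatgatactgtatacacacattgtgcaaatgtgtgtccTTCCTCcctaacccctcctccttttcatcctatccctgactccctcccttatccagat
The window held GAGGAA at 233 bases before the start and its reverse complement at 58, and no E-box. Of 32851 mouse promoter windows of this kind, 23.3% held GAGGAA, 12.3% the E-box, 55.6% GGAAA, 6.75% the AP-1 letters and 14% the RUNX letters. These are matches of letters and say nothing of binding in these cells.

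Acp5 (tartrate-resistant acid phosphatase, the enzyme behind the TRAP stain of osteoclasts) rose most of the 10. Its 9, 20 and 10 reads in the day 0 libraries gave 0.398, 1.04 and 0.801 RPKM. At day 4 it had 411, 403 and 485 reads, or 7.76, 6.70 and 8.34 RPKM, and at day 7 it had 183, 95 and 150 reads, or 8.31, 5.52 and 5.95 RPKM. The day 0 libraries were all under the later ones, and day 4 and day 7 overlapped. The mean went from 0.745 ± 0.323 to 6.59 ± 1.5 RPKM (SD, n = 3), 8.84-fold, with a log2 fold change of 2.74 ± 0.24 (SE; limma adjusted p = 3.05e-13), a scale that understates the change of low genes. Under the 17 alternatives the log2 fold change ran from 2.41 to 3.32 and each passed. The exact permutation test, two-sided, gave p = 0.1 for Acp5, Ctsk, Atp6v0d2 and Mmp9, the smallest that 3 libraries against 3 allow.

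The excess of Ctsk over Acp5 was smaller at both later stages. Ctsk exceeded Acp5 by 123 to 335 times in RPKM at day 0, by 28 to 34.6 times at day 4 and by 27.0 to 42.3 times at day 7. Acp5 lies on the reverse strand at chr9:22126727-22135711 and is overlapped along its full 8985 bases by the noncoding gene 6530413G14Rik on the other strand, which has no value in the tables. Whether counting used the strand is not given in the sources used here, so reads of the pair cannot be told apart. Of the 50-base stretches in its transcripts, 4.64% also occur in transcripts of other genes.

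RefSeq gives Acp5 3 starts, and the 250 bases before each are shown because the deposited values are per gene and cannot tell the starts apart. They come from chr9:22135747-22135996, chr9:22131866-22132115 and chr9:22130599-22130848 of GRCm38.p6, in the order printed, with capitals as for Ctsk.
Acp5 start 1: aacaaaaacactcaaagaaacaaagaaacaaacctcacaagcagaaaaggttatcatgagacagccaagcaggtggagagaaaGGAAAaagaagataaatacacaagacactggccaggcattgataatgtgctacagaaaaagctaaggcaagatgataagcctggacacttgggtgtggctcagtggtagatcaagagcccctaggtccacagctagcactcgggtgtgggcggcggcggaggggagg
Acp5 start 2: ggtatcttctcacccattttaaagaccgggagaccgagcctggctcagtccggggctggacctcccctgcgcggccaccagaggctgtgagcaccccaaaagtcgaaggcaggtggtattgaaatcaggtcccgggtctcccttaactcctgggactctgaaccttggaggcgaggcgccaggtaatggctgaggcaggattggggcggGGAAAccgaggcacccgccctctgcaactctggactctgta
Acp5 start 3: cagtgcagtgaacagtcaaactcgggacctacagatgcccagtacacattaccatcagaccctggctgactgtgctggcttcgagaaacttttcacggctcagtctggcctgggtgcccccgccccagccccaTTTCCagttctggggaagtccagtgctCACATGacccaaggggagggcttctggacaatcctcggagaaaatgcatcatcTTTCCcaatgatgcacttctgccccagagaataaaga
Only the window of start 3 held the E-box CACATG, at 90 bases before the start, between NFAT cores at 117 and 37. The windows of starts 1 and 2 each held a single NFAT core, and none of the 3 held the PU.1, AP-1 or RUNX letters. The window of start 3 also covers 10 bases of an exon of another Acp5 transcript.

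Mmp9 (gelatinase B, a secreted protease of osteoclasts, neutrophils and macrophages, chr2:164940780-164955850, forward strand) was low. It had 24, 37 and 21 reads or 0.484, 0.874 and 0.766 RPKM at day 0, then 0.439, 0.810 and 0.368 RPKM at day 4. At day 7 it had 8, 14 and 26 reads or 0.165, 0.370 and 0.470 RPKM. Every day 7 library was under every day 0 library, the nearest pair being 0.470 and 0.484, and day 4 overlapped with both. The log2 fold change was -0.86 ± 0.28 (SE; limma adjusted p = 0.0136), and 10 of 17 alternatives passed. Without day 7 replicate 1 it was -0.57 (adjusted p = 0.17), without day 0 replicate 2 -0.72 (adjusted p = 0.0807) and without day 0 replicate 3 -0.80 (adjusted p = 0.0612, all by limma). With median-of-ratios scaling it was -0.78 (limma adjusted p = 0.0723). The 8 neutrophil markers, S100a8 and Elane among them, were all under the filter, with a summed level of at most 0.92 CPM in any library, and macrophage markers summed to 80.3 to 224 CPM. The part of either cell type in the level of Mmp9 was not tested.

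Atp6v0d2, the d2 subunit of the proton pump that is used by osteoclasts and also needed for their fusion (chr4:19876841-19922605, reverse strand), rose from a low start. The day 0 libraries had 8, 7 and 4 reads or 0.210, 0.215 and 0.190 RPKM, day 4 had 108, 89 and 142 reads or 1.21, 0.878 and 1.45 RPKM, and day 7 had 20, 26 and 26 reads or 0.539, 0.896 and 0.612 RPKM. All day 0 libraries were lowest, and 2 of the 3 day 7 libraries were under all day 4 libraries. The mean RPKM was 3.33-fold higher at day 7 than at day 0, with a log2 fold change of 1.13 ± 0.28 (SE; limma adjusted p = 0.00119), which ran from 0.73 to 1.86 under the 17 alternatives, all of which passed. The d1 subunit, Atp6v0d1, which most cells use and which was added after its values were seen, exceeded d2 by 310 to 317 times in RPKM at day 0, by 36.6 to 53.7 times at day 4 and by 52.1 to 110 times at day 7.

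The fusion genes were at the limit of detection or close to it. Dcstamp, the membrane protein needed for osteoclast precursors to fuse (chr15:39745930-39760938, forward strand), had 1 read in day 7 replicate 1 and 0 in the other 8 libraries. Over the day 4 libraries, 0 of 106163227 reads allows a level of up to 0.0283 CPM, and over the day 0 libraries 0 of 33708316 allows up to 0.089 CPM, both taken as 3 reads of the total. The upper ends of the exact 95% Poisson intervals, which are two-sided, were 0.0347 and 0.109 CPM. These limits cover counting error only.

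Ocstamp, the partner of Dcstamp in fusion (chr2:165393760-165400405, reverse strand), was detected in most libraries. It had 2, 5 and 1 reads at day 0, 16, 31 and 30 at day 4, and 4, 6 and 10 at day 7. Per length this was 0.0353 to 0.114 RPKM at day 0, 0.133 to 0.227 at day 4 and 0.0801 to 0.175 at day 7. The day 4 libraries lay above all day 0 libraries, while day 7 overlapped with both. Summed over a stage, the reads corresponded to 0.237 CPM at day 0 (exact 95% Poisson interval 0.102 to 0.468), 0.725 at day 4 (0.572 to 0.906) and 0.501 at day 7 (0.306 to 0.773). The exact permutation test of day 7 against day 0 gave p = 0.2, and limma over all genes with any reads gave an adjusted p of 0.141. Of its 50-base stretches 2.8% are shared with transcripts of other genes.

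Tnfrsf11a (RANK, the receptor that receives RANKL, chr1:105780718-105847981, forward strand) was present at a low level at every stage. It had 0.369, 0.391 and 0.259 RPKM at day 0, 0.346, 0.318 and 0.283 at day 4, and 0.269, 0.516 and 0.278 at day 7, from 12 to 71 reads per library. The stages overlapped throughout, and the log2 fold change was 0.02 ± 0.26 (SE; limma adjusted p = 0.97), of either sign depending on the setting. Its ligand gene Tnfsf11 (RANKL), had 0.893, 0.449 and 0.693 RPKM at day 0, 7.73, 4.10 and 7.06 at day 4, and 2.59, 2.22 and 2.12 at day 7, and was higher at day 7 by a log2 fold change of 1.52 ± 0.24 (SE; limma adjusted p = 1.85e-06). Tnfrsf11b (osteoprotegerin, the decoy that binds RANKL) had 15.2 to 30.2 RPKM at day 0 and 21.0 to 33.2 at day 7, higher by 0.52 ± 0.19 on the log2 scale (SE; limma adjusted p = 0.0302). This call was lost over all genes with any reads (limma adjusted p = 0.0798), and its day 0 and day 7 libraries overlapped. In every library its RPKM exceeded that of Tnfsf11. Csf1 (M-CSF) had 39.7 to 45.0 RPKM at day 0 and 32.5 to 38.6 at day 7 and did not pass (limma adjusted p = 0.222). Its receptor Csf1r, a macrophage gene, rose by 0.98 ± 0.22 (SE; limma adjusted p = 0.000466). Of the 5 genes of these signals, Tnfsf11, Tnfrsf11b and Csf1r were higher, beside 12.6% of all genes tested, and Csf1 and Il34 did not pass.

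Itgb3 (the β3 chain of the vitronectin receptor, which holds the osteoclast to bone, chr11:104608000-104670476, forward strand) was the next most abundant of the 10. It had 8.35, 11.1 and 7.83 RPKM at day 0, 13.3, 12.8 and 13.8 at day 4, and 11.3, 9.53 and 10.4 at day 7. Day 4 lay above all other libraries, and day 0 and day 7 overlapped. The log2 fold change was 0.21 ± 0.16 (SE; limma adjusted p = 0.352), and 3 of 17 alternatives passed, among them median-of-ratios scaling with 0.32 (limma adjusted p = 0.0318). Its partner chain Itgav fell by 0.96 on the log2 scale (SE 0.16; limma adjusted p = 2.45e-06). Itgav exceeded Itgb3 by 5.05 to 6.48 times in RPKM at day 0, 2.40 to 2.87 at day 4 and 2.48 to 2.59 at day 7. Itga2b, the other chain that pairs with β3 and a platelet gene, had 0.710 to 1.15 RPKM at day 0 and 0.416 to 0.540 at day 7, under Itgb3 in each library.

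Oscar, the collagen receptor that costimulates osteoclast precursors (chr7:3609813-3616157, reverse strand), had 1, 2 and 2 reads at day 0, 6, 5 and 7 at day 4 and 2, 1 and 0 at day 7. Calcr, the calcitonin receptor of mature osteoclasts (chr6:3685680-3764714, reverse strand), had 0, 1 and 2 reads at day 0, 1, 2 and 2 at day 4 and 0, 4 and 0 at day 7. Both overlapped between all stages, and over all 9 libraries they had 26 and 12 reads. Summed by stage, in the order of the days, Oscar was at 0.148, 0.17 and 0.0751 CPM and Calcr at 0.089, 0.0471 and 0.10 CPM, all with overlapping exact 95% Poisson intervals. Overlap of such intervals is no test of a difference. For day 7 against day 0, limma over all genes with any reads gave adjusted p = 0.442 for Oscar and 0.992 for Calcr. With so few reads, a difference between stages could not be judged for either gene.

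The window before the Oscar start (chr7:3616158-3616407 of GRCm38.p6, reverse strand) is shown beside those of Ctsk and Acp5 because it held more of the motifs searched than any other of the 8 windows at hand for these genes, at a gene with hardly a read.
Oscar: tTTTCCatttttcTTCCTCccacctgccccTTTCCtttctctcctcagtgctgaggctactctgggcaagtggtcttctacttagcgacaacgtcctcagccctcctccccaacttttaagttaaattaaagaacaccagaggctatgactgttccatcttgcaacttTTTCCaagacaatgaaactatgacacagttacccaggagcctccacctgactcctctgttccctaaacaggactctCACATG
It held the E-box at 6 bases before the start, the reverse complement of GAGGAA at 237, and 3 NFAT cores. The 8 windows belong to 5 of the 10 genes. Of those not shown, the window of Tnfrsf11a and that of Calcr start 2 held none of the motifs searched. The window of Calcr start 1 held only an NFAT core.

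Ordered by mean RPKM, Ctsk came first and Itgb3 next at each stage, with no overlap between their libraries. Acp5 and Mmp9 overlapped at day 0, at 0.745 and 0.708 RPKM. At day 4 and day 7 Acp5 stood next and apart from its neighbours, followed by Atp6v0d2. Tnfrsf11a and Mmp9 overlapped at day 7 and were apart at day 4. Oscar, Ocstamp and Calcr overlapped with one another at day 0, and Dcstamp was last at each stage. Among the marker genes drawn beside them, Ctsk lay above Lyz2, and Acp5 went from under Cd68 to about its level, a ratio of 0.121 to 0.226 at day 0, 0.998 to 1.48 at day 4 and 0.805 to 1.08 at day 7.

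**Figure D2:**
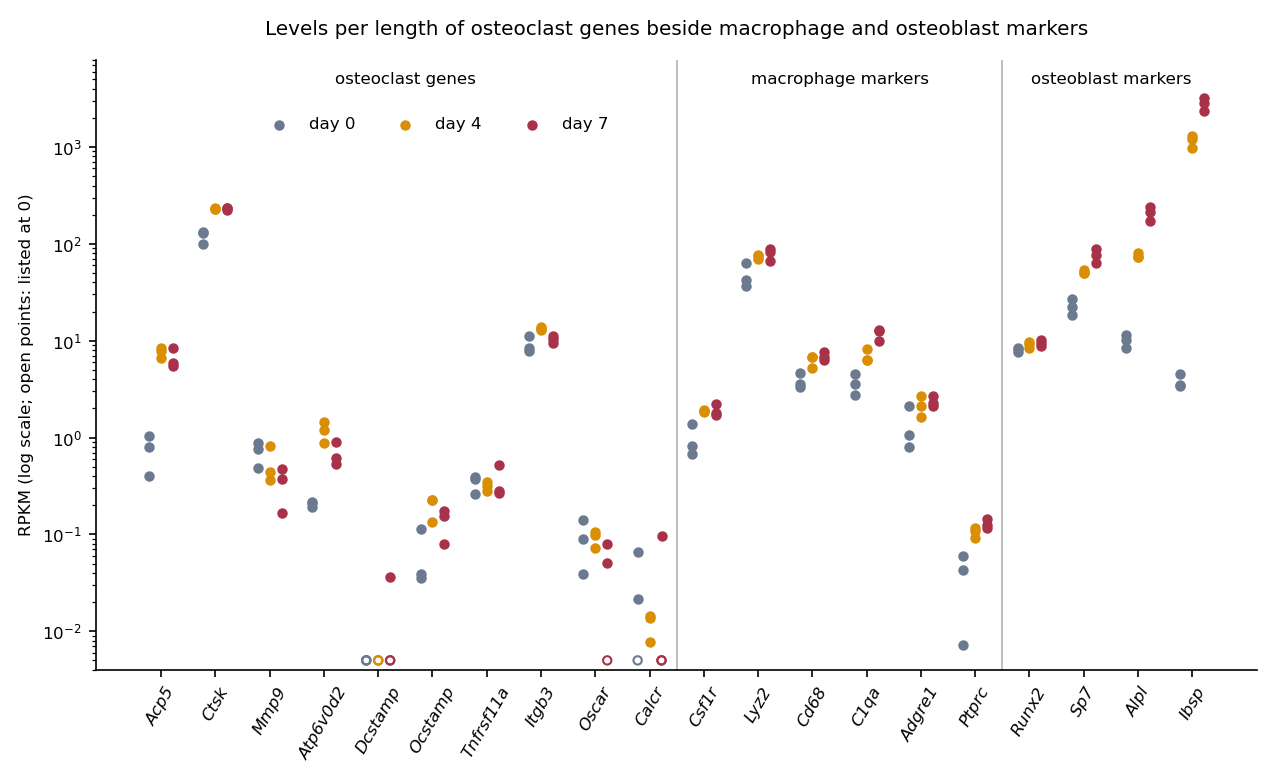
RPKM on a log axis for the 10 osteoclast genes, 6 macrophage markers and 4 osteoblast markers (horizontal axis), 1 point per library coloured by stage, with open points at the bottom for libraries listed at 0. Ctsk lies above every macrophage marker drawn, and Dcstamp, Oscar and Calcr hold the open points.

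The wider osteoclast machinery, 40 genes of 5 roles, was listed beside the 10. Of these, 31 were tested, 5 were higher (Id2, Tyrobp, Fcer1g, Trem2 and Tec), 7 were lower and 19 did not pass, with a median log2 fold change of -0.06 against -0.11 over all genes tested. The count of 5 in 31 stands beside 12.6% of all genes and the 7 beside 18.6%. Over the alternatives 4 to 10 were higher and 4 to 11 lower, and the calls over all genes moved as well. The 10 came with voomWithQualityWeights, which called 3148 of 12712 genes higher instead of 1602. The 11 came without day 0 replicate 3, where 4696 genes were lower instead of 2369.

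Of the transcription factors that drive osteoclast formation, 7 of 10 were tested, Nfkb1 was lower, beside 18.6% of all genes tested, and 6 did not pass. Nfatc1, the master factor, had 3.10 ± 0.338 RPKM at day 0 and 3.34 ± 0.473 at day 7 (SD, n = 3; limma adjusted p = 0.699). Mitf had 1.16 ± 0.416, 2.51 ± 0.0626 and 1.58 ± 0.147 RPKM at days 0, 4 and 7 (limma adjusted p = 0.0857 for day 7). Fos, an immediate early gene as well, stood at 23.9 ± 1.99 RPKM at day 4, above all libraries at day 0 (4.85 ± 0.237) and day 7 (5.10 ± 1.59). Spi1, the gene of the myeloid factor PU.1, had 5, 7 and 2 reads at day 0 and 21, 11 and 25 at day 7, without overlap. It was under the filter, and limma over all genes with any reads gave a log2 fold change of 1.07 (adjusted p = 0.00342). Prdm1, which silences inhibitors of osteoclast formation, had at most 3 reads in any library, and Tfec at most 5. Of the 5 inhibitors 4 were tested, 1 was higher and 2 were lower, beside 12.6% and 18.6% of all genes tested. Id1 fell by 0.66 on the log2 scale (limma adjusted p = 0.00236), whereas Id2 rose by 0.68 (limma adjusted p = 0.00182).

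Of the costimulatory genes, 6 of 8 were tested and 4 were higher, beside 12.6% of all genes tested. Tyrobp and Fcer1g, the ITAM adaptors that osteoclasts share with macrophages, rose by 1.02 ± 0.25 and 1.25 ± 0.28 (SE; limma adjusted p = 0.00118 and 0.000401). Trem2, a receptor that works through Tyrobp, rose by 1.06 ± 0.27 and the kinase Tec by 1.05 ± 0.23 (SE; limma adjusted p = 0.00157 and 0.000375). Siglec15, another Tyrobp partner and one of the more osteoclast-restricted receptors, had 3 and 2 reads in a pair of day 4 libraries and 0 in the other 7.

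Of the acid secretion genes, 9 of 10 were tested, Clcn7, Ostm1 and Slc4a2 were lower, beside 18.6% of all genes tested, and 6 did not pass. Clcn7, a chloride transporter of the resorbing border and of lysosomes, went from 15.7 ± 1.84 to 9.46 ± 0.458 RPKM (SD, n = 3; log2 fold change -0.72, limma adjusted p = 0.000262). Tcirg1, the a3 subunit of the same proton pump, had 12.4 ± 1.33 RPKM at day 0 and 13.2 ± 0.659 at day 7 (SD, n = 3; limma adjusted p = 0.712). Car2, the carbonic anhydrase that supplies protons in osteoclasts, had at most 5 reads in any library. Of the sealing zone genes, 5 of 7 were tested, Itgav was lower and 4 did not pass, with Src at 15.8 ± 1.06 and 14.3 ± 0.653 RPKM (SD, n = 3; limma adjusted p = 0.531). Gsn, the most abundant of them, had 146 ± 11.8 and 177 ± 7.72 RPKM (SD, n = 3; limma adjusted p = 0.174).

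**Figure D3:**
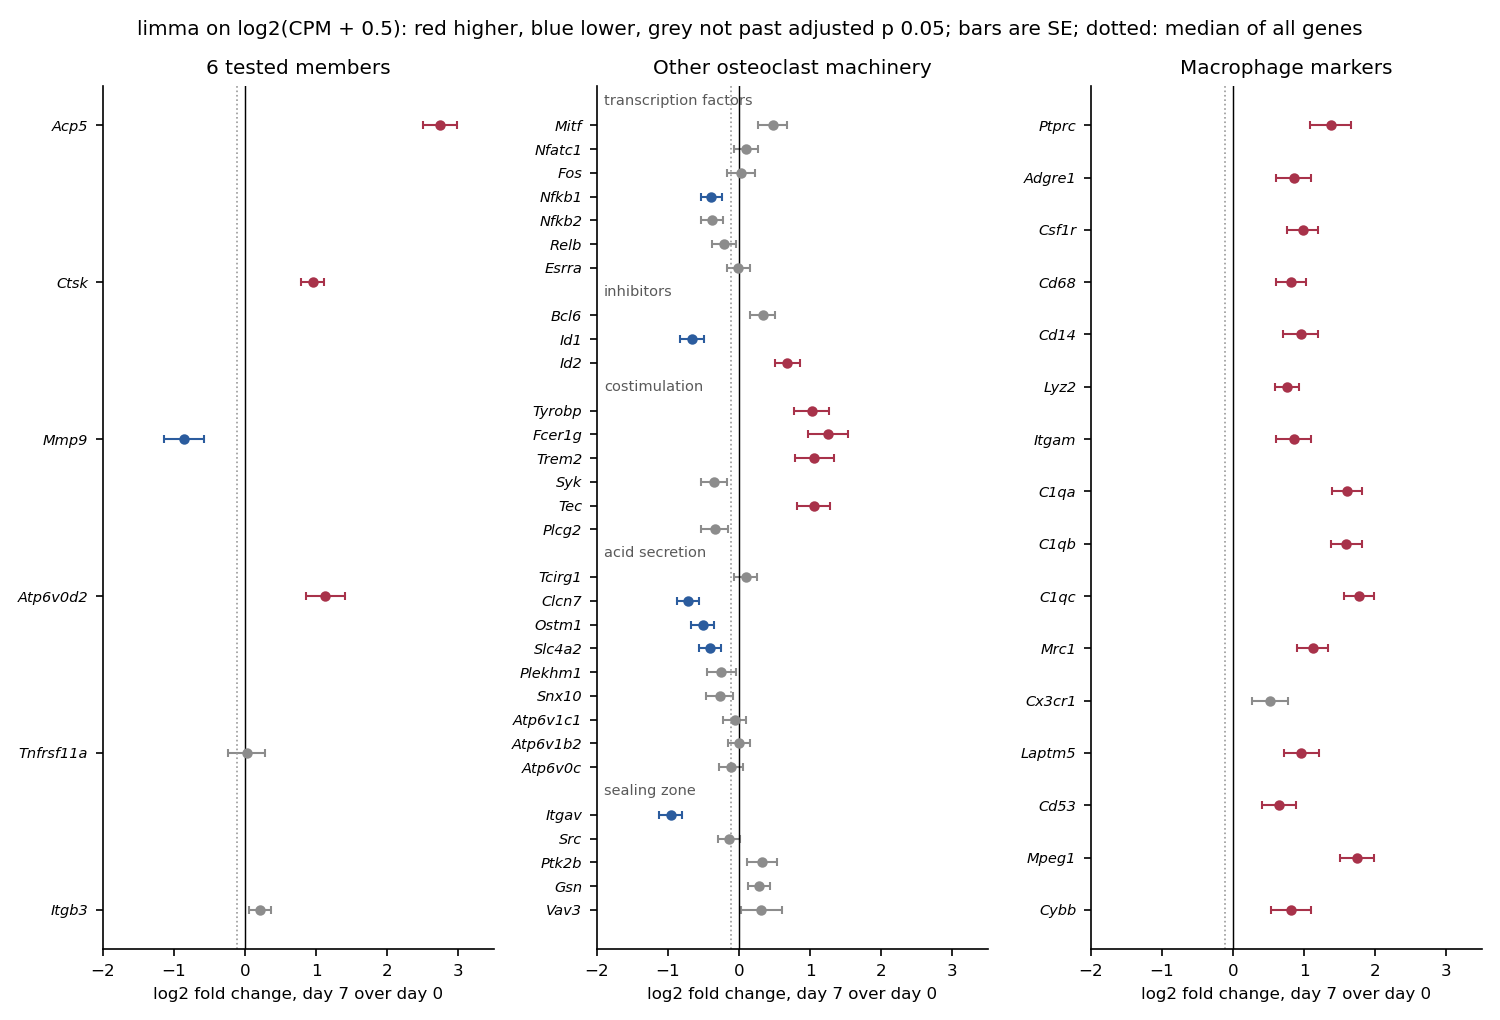
Log2 fold change of day 7 over day 0 (horizontal axis) for the 6 tested osteoclast genes, tested machinery genes by role and the 16 tested macrophage markers, with SE as bars, red for higher, blue for lower and grey for not past the threshold. Acp5 has the largest rise drawn, the macrophage markers lie to the right of 0, and the machinery lies on both sides.

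Macrophage markers were also higher at day 7 than at day 0. Of 18 markers, 16 were tested, 15 were higher at day 7 beside 12.6% of all genes, Cx3cr1 did not pass, and the median log2 fold change was 0.96. Over the alternatives 10 to 16 were higher. The 10 came without day 7 replicate 1, where 1174 of all genes tested were higher, and the 16 with median-of-ratios scaling among others, where 2843 were. Their summed CPM ran from 80.3 to 135 at day 0, 162 to 185 at day 4 and 173 to 224 at day 7. All 18 had reads, 15 of them over 3 reads in each library. Ptprc (CD45, a marker of white blood cells) had 15, 9 and 1 reads at day 0 and 35, 24 and 32 at day 7, and rose by 1.37 ± 0.29 (SE; limma adjusted p = 0.000213). The largest rises in the list on the log2 scale were those of C1qc, a complement gene of tissue macrophages, with 1.77 ± 0.21 (SE; limma adjusted p = 2.29e-09), and Mpeg1, the perforin-2 gene, with 1.74 ± 0.24 (SE; limma adjusted p = 6.48e-08), while by mean RPKM Mpeg1 rose 3.90-fold and C1qc 3.74-fold. The part of macrophage-lineage cells in the levels of the osteoclast genes was not tested.

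Set against the summed CPM of the macrophage markers in the same library, the 6 tested osteoclast genes differed in direction. The 4 genes under the filter, with few reads, are left out of this comparison. Acp5 made up 0.799%, 1.24% and 1.46% of that sum at day 0, 7.28%, 5.84% and 8.32% at day 4 and 5.99%, 5.14% and 4.79% at day 7, so that its day 7 mean was 4.54 times that of day 0. Its day 0 libraries were under all later ones, and day 4 and day 7 overlapped. Ctsk stood at 246%, 141% and 168% of the sum at day 0 and 149%, 200% and 175% at day 7, which overlapped. Atp6v0d2 overlapped between day 0 and day 7 on this scale, at means of 0.577% and 0.964%, and lay above day 0 at day 4. Mmp9 had means of 2.5% at day 0 and 0.617% at day 7 and Itgb3 of 54.2% and 31.0%, both lower at day 7 without overlap. Tnfrsf11a stood at 2.08% and 1.11% and overlapped. Lyz2 alone made up 48.6% to 60.2% of the sum. Without it, a choice made after seeing the data, the day 7 mean over the day 0 mean was 3.68 for Acp5 and 1.36 for Atp6v0d2, and Tnfrsf11a, at 0.432, no longer overlapped. These ratios are descriptions without a test.

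**Figure D4:**
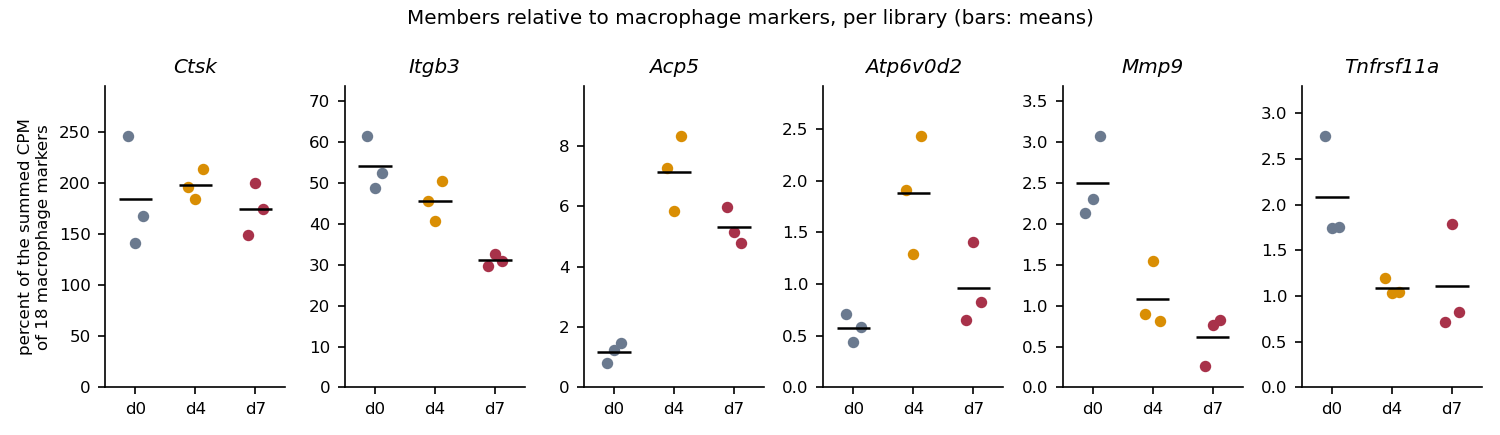
CPM of the 6 tested osteoclast genes as percent of the summed CPM of 18 macrophage markers in the same library (vertical axis, own scale in each panel) at days 0, 4 and 7 (horizontal axis), with points for libraries and lines for means. Acp5 lies higher at day 7 than at day 0 on this scale, Ctsk overlaps between the stages, and Itgb3 and Mmp9 lie lower at day 7.

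Markers of other blood and vessel lineages were low or mixed. The 8 neutrophil and 5 lymphocyte markers were all under the filter, with summed levels of at most 0.92 and 0.334 CPM. The 7 megakaryocyte and platelet markers summed to 8.61 to 13.4 CPM, with 4 of them over 3 reads in all 9 libraries. Of these markers, Gp9 had 0 reads in all 9 libraries, Itga2b was lower, Pf4 was higher by 1.00 (limma adjusted p = 0.00218) and 2 did not pass. Among all genes tested 18.6% were lower and 12.6% higher. The 8 endothelial markers summed to 6.83 to 12.3 CPM. Of these, 2 were tested and Esam was higher, beside 12.6% of all genes tested. Egfl7 had 42 to 199 reads in each library and did not pass, and Pecam1 and Cdh5 had at most 13 and 9 reads. Of 6 dendritic cell markers 1 was tested and did not pass. The osteoblast and osteocyte markers had a median log2 fold change of 3.85 over 12 tested, and the part of these cells in the levels was not tested either.

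The 6 genes with more than 3 reads in each library were compared with 12781 genes over the 9 libraries by Pearson correlation of log2(CPM + 0.5), as a description, since the libraries share stage, table and depth. Acp5 was most like Efs (r = 0.994), Prkar1b (0.993) and Cpz (0.992), and its 100 most like genes held 1 of 16 macrophage markers and 3 of 12 osteoblast and osteocyte markers, or 1 and 0 by Spearman correlation. Ctsk was most like Rab27b (0.993), Nt5e and Ccdc116 (both 0.991), and its 100 held 1 osteoblast or osteocyte marker, or 0 by Spearman correlation. Atp6v0d2 was most like Tmem200a (0.983), Slco2a1 (0.982) and Thrb (0.978). Itgb3 was most like Mitf (0.988), Vash1 (0.976) and Mapk6 (0.972). Mmp9 and Tnfrsf11a, with few reads, had weaker best matches, D330041H03Rik (0.936), Opn1sw (0.921) and Tmem252 (0.897) for the former and Kctd13 (0.884) and Ss18l1 (0.807) for the latter. The 100 most like genes of these last 4 held no marker of either kind.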

How the data were processed

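Calvarial cells were measured by RNA-seq at 3 stages with 3 replicates each, grouped by the sample records. The authors aligned reads with STAR 2.0.4b to GRCm38 and counted unique, unambiguous reads per gene with featureCounts (1.45 in the submitters' processing notes), and deposited CPM and RPKM values per gene. Use of strand is not given in the sources used here. Repeated lines of a gene (276 and 273) were used once. All CPM values (100%) were whole multiples of 1 read (within 0.01 read, or 0.01% of counts above 100), and reads were recovered from them. RPKM gave levels.

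The test of day 7 against day 0 used limma 3.58.1 (R 4.3.3, mean-variance trend) on log2(CPM + 0.5) for genes averaging 1 CPM or more. The prior had 42.9 degrees of freedom against 4 residual, so a gene's own spread counts little. Exact permutation tests were two-sided. Day 4 entered no test. The script was tested on simulated data. Alternatives were other pseudocounts, filters, scaling, the RPKM table, robust variances, a replicate block, each library left out, and edgeR 4.0.16, DESeq2 1.42.0 and voomWithQualityWeights on the recovered reads, which called 5468, 4910 and 6120 genes. Correlations of the deviations of same-numbered libraries were -0.017, -0.181 and -0.444, and those of unlike-numbered libraries ran from -0.271 to 0.356. With 3 libraries per stage, this cannot tell whether the numbers pair the samples, and the main test assumed no pairing. Intervals cover counting error only, since they rest on reads summed over the libraries of a stage and leave out the spread between cultures. They also make no allowance for PCR copies, which were not marked. Coordinates come from GENCODE M21 and promoter windows from RefSeq, both on GRCm38. The genes and gene lists were chosen with earlier results of these data known. Values of a few single genes are not reported here. Genes of the lists were named for the largest rise or fall, for abundance, for being at or under 3 reads, or to say what a role holds.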

Additional observations from a re-analysis of the deposited data

How the results depend on the processing

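Acp5, Ctsk and Atp6v0d2 kept their direction and passed under all 17 alternatives. Mmp9 kept its direction but missed the threshold with all genes with any reads (-0.86, limma adjusted p = 0.0586), median-of-ratios scaling (-0.78, limma adjusted p = 0.0723), edgeR (-0.91, adjusted p = 0.0941) and DESeq2 (-0.95, adjusted p = 0.0941), so the count of lower genes was 0 with these 4 instead of 1, and it ran from 0 to 1 with single libraries left out, where the Mmp9 log2 fold change ran from -1.07 to -0.57. Itgb3 passed with median-of-ratios scaling (0.32), edgeR (0.31) and DESeq2 (0.31), with limma, edgeR and DESeq2 adjusted p of 0.0318, 0.0342 and 0.0264. Tnfrsf11a, never past the threshold, turned to -0.03 with voomWithQualityWeights and ran from -0.23 to 0.15 with single libraries left out. The exact permutation difference of Calcr turned from -0.006 to 0.004 with a pseudocount of 1. The machinery genes called higher numbered 9 with any reads and 8 with a mean CPM of at least 0.1 instead of 5. These filters admit more genes, and the 9 were the same 5 with genes under the main filter, Spi1 among them. The higher ones numbered 8 with edgeR, 8 with DESeq2 and 10 with voomWithQualityWeights, which called 2818, 2581 and 3148 of all genes higher instead of 1602. The lower ones ran from 4 (leaving out day 0 replicate 1, day 0 replicate 2, day 7 replicate 1 or day 7 replicate 3) to 11 (without day 0 replicate 3, the shallowest library) instead of 7. Over all genes, leaving out day 0 replicate 3 gave 4696 lower instead of 2369. The bone markers among the 100 genes most like Acp5 and Ctsk numbered 0 for both by Spearman correlation. Leaving Lyz2 out of the macrophage sum moved the ratio of day 7 to day 0 from 4.54 to 3.68 for Acp5, from 0.945 to 0.772 for Ctsk and from 0.573 to 0.468 for Itgb3. Median-of-ratios scaling shifted the all-gene median of the log2 fold change from -0.11 to -0.01. Apart from the genes admitted by the wider filters, the cause of these shifts was not tested.

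With the replicate number as a block, which the labels do not tie to a shared culture, no call of the 10 genes changed (Acp5 2.74, Ctsk 0.95, Mmp9 -0.86, Atp6v0d2 1.13), the machinery had 5 higher and 5 lower, 14 macrophage markers and 11 osteoblast and osteocyte markers were higher, and 3413 genes were called over all instead of 3971. Depth limits Dcstamp, Oscar and Calcr, where 3 reads in a library correspond to 0.0804 to 0.387 CPM.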
